A study of Homo sapiens with 19 samples.

Results

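The insulin-like growth factor (IGF) system was described here in 19 arrays of MDA-MB-231, an established human breast cancer cell line, and of metastatic and ploidy sublines derived from it. Its members were 9 genes: the binding proteins IGFBP3, IGFBP4, IGFBP5, IGFBP6 and IGFBP7, the receptors IGF1R and IGF2R, and the receptor substrates IRS1 and IRS2. They were chosen by name, as the probe sets annotated to 1 of these genes and to no other, which gave 20 of the 22283 probe sets on the array. Of these 20, 16 passed a filter on low signal and 4 did not (3 of IGFBP5 and 1 of IGFBP7), and each of the 9 genes kept at least 1 probe set.

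The study asked how ploidy and metastatic ability are related in these cells. The strongly bone-metastatic group held 4 lines (1833, 2274, 2268 and 2269) and the weakly bone-metastatic group 3 lines (2293, 2295 and 2296). The strongly lung-metastatic group held 4 lines (4142, 4173, 4175 and 4180) and the weakly lung-metastatic group 3 lines (SCP21, SCP6 and SCP26). A hyper-ploid and a modal-ploid subline of 1833 and of 4175 made up 2 hyper-ploid and 2 modal-ploid samples, and the parental line was measured on 1 array. All lines were grown in DMEM with fetal bovine serum, antibiotics and selective drugs, and RNA was taken before confluence. Each line had a single array, the 1833 and 4175 lines of the strong groups were original sublines after short culture, and the line titled 2296 appears as 2297 in its cell line label, in the weak bone group under either name. No label says that lines of a group were independent isolates, so p-values measure the spread between lines only.

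IGF1 and IGF2 are secreted growth factors that act mainly through IGF1R, a receptor tyrosine kinase that signals through the docking proteins IRS1 and IRS2 to PI3-kinase and AKT. The IGF-binding proteins are secreted carriers that hold the ligands away from the receptor or deliver them to it, and proteases release the ligand by cutting the carrier. IGF2R has no kinase and takes IGF2 up for breakdown in lysosomes. Bone matrix stores IGFs that are released when it is resorbed, and the system has long been studied in breast cancer spread to bone.

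Levels are given as array signal, in the scanner's arbitrary units, after each array was scaled to a median of 142.9. The 40th percentile of an array, used as the mark of a dim probe set, lay between 71.6 and 93.8 on this scale. The arrays fell into 2 sets: the bone lines, the 1833 ploidy pair and the parental line in the first, and the lung lines and the 4175 pair in the second. Organ and array set cannot be told apart, so levels of bone and lung lines are set side by side without comparison. Before that scaling the 4 ploidy arrays stood apart, with a trimmed mean of 319 to 356 against 492 to 493 on the other 15 arrays. Hybridisation spike-ins, also before scaling, averaged 11.09 to 11.37 (log2) in strong bone lines and 11.17 to 11.36 in weak bone lines. They averaged 10.18 to 10.69 in strong lung lines, 9.89 to 10.44 in weak lung lines and 9.25 to 9.60 on the ploidy arrays. The 5 mesenchymal markers of MDA-MB-231 were above the 40th percentile on all arrays. Of 9 epithelial and luminal markers, 7 were above it on at least 1 array of each group. CDH1 and PGR were above it in none of the 18 sublines. On the parental array CDH1 was above it, while ESR1 and PGR were not. Of 6 leukocyte markers on the array, 3 or 4 were above it on at least 1 array of each group. The same was so for 3 to 6 of 10 endothelial and stromal markers. Among these 2 lists, PTPRC, LYZ, CDH5, LUM and VWF were above it on no array.

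Between strong and weak bone lines, 2 binding proteins and 1 receptor differed. Strong bone lines had less IGFBP6, a carrier that prefers IGF2, and less IGF2R, and more IGFBP7, a matrix-associated member that binds IGFs only weakly. The mean IGFBP6 signal was 3.32 times higher in weak bone lines, the mean IGF2R signal was 1.74 times higher in weak bone lines, and the mean IGFBP7 signal was 2.84 times higher in strong bone lines. These were 3 of the 9 members at an adjusted p under 0.05 (limma, Benjamini-Hochberg over 9550 genes), 1 higher and 2 lower, while 11.4% of all genes passed in this comparison (6.67% higher, 4.69% lower). Over all genes, 637 were higher and 448 lower, against 712 higher and 794 lower when arrays were scaled to a common trimmed mean. An unadjusted p under 0.05 was reached by 5 members and by 26.7% of all genes. For 4 of the 9 members, these 3 and IGFBP3, the strong and weak lines did not overlap, as was so for 27.4% of all genes. The members' median log2 difference was 0.29, against 0.01 over all genes.

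IGFBP6 gave signals of 705, 812, 549 and 542 in the strong bone lines 1833, 2274, 2268 and 2269, against 2205, 1622 and 2672 in the weak bone lines 2293, 2295 and 2296. Every weak line lay well above every strong line. The means were 652 ± 131 in strong bone lines (SD, n = 4) and 2166 ± 526 in weak bone lines (SD, n = 3), a log2 difference of -1.70 (SE 0.31, 95% interval -2.37 to -1.02, limma adjusted p = 0.00414). The parental line, with a signal of 977, lay between the groups, 0.59 above the strong mean and 1.11 below the weak mean on the log2 scale.

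IGFBP7 gave 5961, 5480, 11039 and 4765 in the strong bone lines, against 2175, 2268 and 2762 in the weak bone lines. The groups did not overlap, and line 2268 was the highest of the strong lines. The log2 difference was 1.42 (SE 0.32, 95% interval 0.74 to 2.11, limma adjusted p = 0.0127). Another probe set of IGFBP7 gave 2617, 2659, 3184 and 2610 in the strong bone lines and 1232, 1030 and 1534 in the weak bone lines, and tested alone it was higher by 1.13 (SE 0.27, limma adjusted p = 0.0191). The parental signal of 11406 exceeded that of every bone line, and was nearer to the strong mean (0.82 above it) than to the weak mean (2.25 above it) on the log2 scale.

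IGF2R, which also carries enzymes bearing mannose 6-phosphate to lysosomes, gave 393, 377, 499 and 447 in the strong bone lines, against 611, 751 and 877 in the weak bone lines. All 3 weak lines were above all 4 strong lines. The log2 difference was -0.77 (SE 0.19, 95% interval -1.18 to -0.36, limma adjusted p = 0.0188). The other probe set of IGF2R did not separate the groups, with 258, 283, 390.4 and 234 in strong lines and 379, 407 and 383 in weak lines (log2 difference -0.43, limma adjusted p = 0.438). Here the parental line sat with the weak lines: its signal of 791 was 0.10 above the weak mean and 0.87 above the strong mean on the log2 scale.

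IGFBP3, the main IGF carrier of serum, gave 3060, 3073, 3404 and 2429 in the strong bone lines, against 2284, 1569 and 1973 in the weak bone lines. The lowest strong line was just above the highest weak line. The log2 difference of 0.63 (SE 0.22, 95% interval 0.16 to 1.09) missed the threshold, with a limma adjusted p of 0.0810. The other IGFBP3 probe set ran the same way, at 1205 to 1304 in strong lines and 735 to 960.3 in weak lines (log2 difference 0.53, limma adjusted p = 0.122).

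The other 5 members did not pass, and their strong and weak bone lines overlapped. IGF1R gave 272, 274, 209 and 248 in strong bone lines against 73.3, 166 and 216 in weak bone lines, and the lowest of these, line 2293, was not above its array's 40th percentile. The IGF1R difference of 0.77 (SE 0.35, 95% interval 0.02 to 1.52) had a limma adjusted p of 0.176. The other 2 kept IGF1R probe sets, with means near the dim mark, gave -0.48 and 0.46. The first of these was above the 40th percentile on all 3 weak bone arrays, at 205 in line 2293. IRS2 ranged from 674 to 1274 in strong bone lines and from 639 to 678 in weak bone lines, so that 3 strong lines were above all weak lines and line 2269 was level with them (log2 difference 0.64, limma adjusted p = 0.231). Its other probe set gave a difference of 0.02. IRS1 ranged from 531 to 1103 in strong lines and from 825 to 1212 in weak lines (-0.39, limma adjusted p = 0.352). IGFBP4, an inhibitory carrier, ranged from 6558 to 10824 in strong lines and from 5750 to 8469 in weak lines (0.29, limma adjusted p = 0.408). IGFBP5, a carrier found in bone matrix, was above the 40th percentile on only 6 of the 19 arrays, and its difference of -0.11 rested mostly on dim signals.

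**Figure D1:**
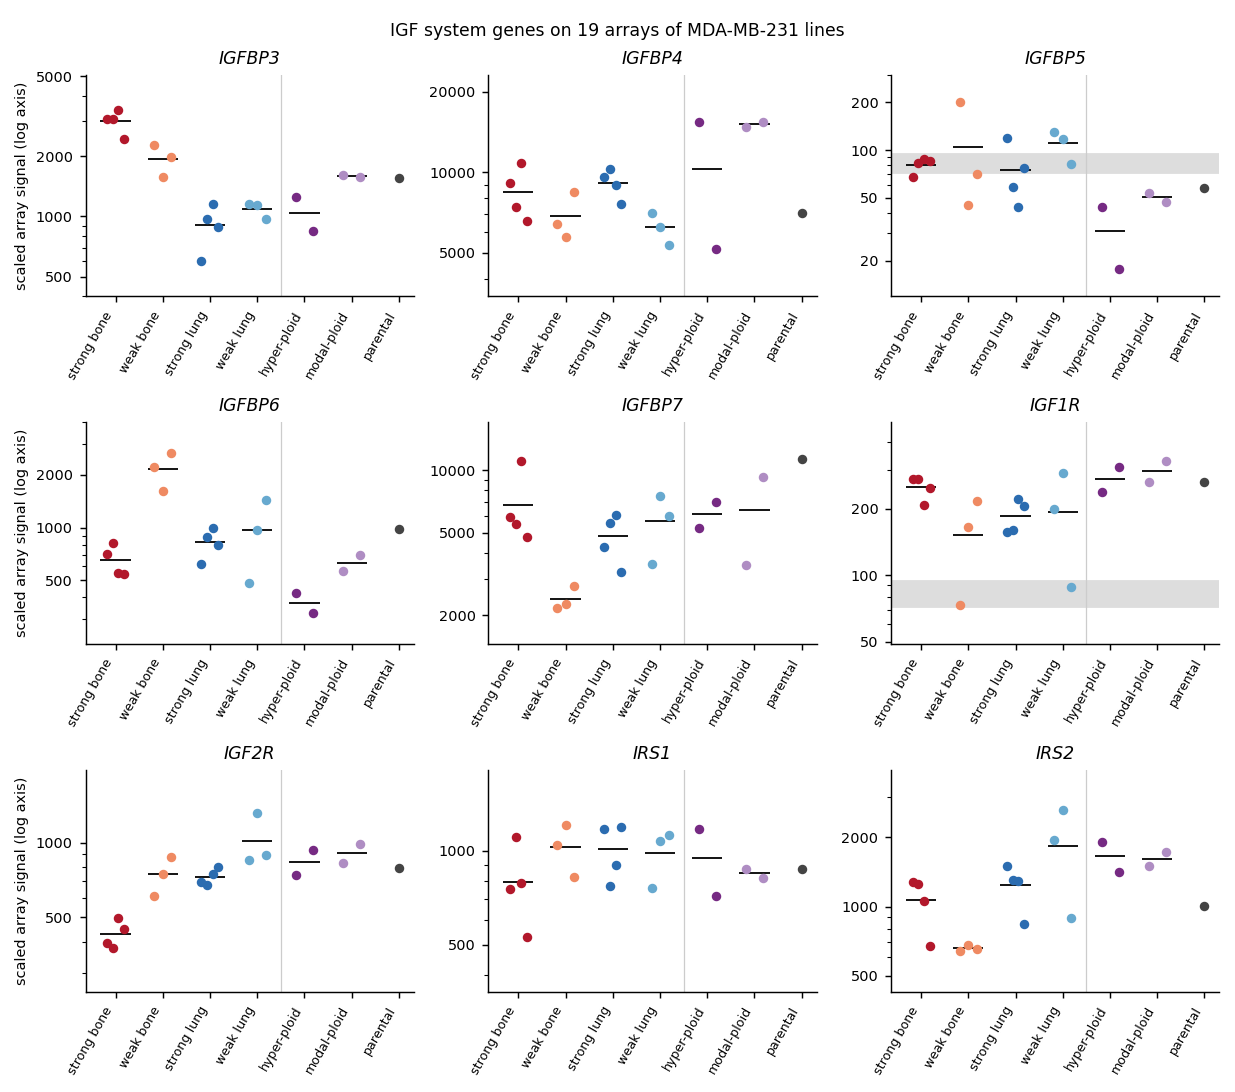
Array signal (log axis, arbitrary units) of the probe set that stands for each of the 9 IGF genes, 1 point per array by group, with black bars at group means and a grey vertical line between the metastatic lines and the ploidy and parental samples. IGFBP6 at 542 to 812 in strong bone lines lies apart from 1622 to 2672 in weak bone lines, and the grey bands for IGFBP5 and IGF1R mark the range of the arrays' 40th percentile.

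Some calls rested on single lines. The IGF2R call was lost without line 1833, 2274, 2295 or 2296 (limma adjusted p 0.0518 to 0.0909) and with the mean of its probe sets (limma adjusted p = 0.124), and the IGFBP7 call was lost without line 2293 (limma adjusted p = 0.0514). Of the marker genes, PECAM1 moved with the bone groups (log2 difference -1.60, limma adjusted p = 0.00152), as did GATA3 (1.13, 0.0135) and CAV1 (-0.71, 0.0135, lost without line 2293 or 2295); the summed signal of the endothelial and stromal list was 776 to 1161 in strong lines and 1067 to 1527 in weak lines, that of the leukocyte list was 271 to 540.3 in strong lines and 369 to 536 in weak lines, and their part in the IGF results was not tested.

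The stretches of 250 bases before the RefSeq start of IGFBP6, IGF2R and IGFBP3 are printed because strong and weak bone lines did not overlap for these genes. They run 5′ to 3′ on the gene's strand, from RefSeq's annotation of GRCh38.p14, at chr12:53097417-53097666 (plus strand), chr6:159968832-159969081 (plus strand) and chr7:45921273-45921522 (minus strand). Capitals mark matches, on either strand, to 9 short motifs searched: GGGCGG (the GC box of SP1), TATAAA (a core promoter element), TGACGTCA (CRE), TGANTCA (AP-1), CACGTG (E-box), GTAAACA (FOXO), TGTTTTG (insulin response element), GGAATG (TEAD) and GCGTGGGCG (EGR1).
IGFBP6: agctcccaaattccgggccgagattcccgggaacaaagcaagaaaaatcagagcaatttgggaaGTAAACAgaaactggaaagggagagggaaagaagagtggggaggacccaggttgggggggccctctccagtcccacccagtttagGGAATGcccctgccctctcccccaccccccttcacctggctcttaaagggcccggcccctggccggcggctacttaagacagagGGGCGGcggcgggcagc
IGF2R: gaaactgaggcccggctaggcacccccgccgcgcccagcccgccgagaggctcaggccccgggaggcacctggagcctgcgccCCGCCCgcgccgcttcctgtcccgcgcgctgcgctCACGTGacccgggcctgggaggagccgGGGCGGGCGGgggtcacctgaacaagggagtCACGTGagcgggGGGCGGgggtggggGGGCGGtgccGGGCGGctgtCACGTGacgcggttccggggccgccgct
IGFBP3: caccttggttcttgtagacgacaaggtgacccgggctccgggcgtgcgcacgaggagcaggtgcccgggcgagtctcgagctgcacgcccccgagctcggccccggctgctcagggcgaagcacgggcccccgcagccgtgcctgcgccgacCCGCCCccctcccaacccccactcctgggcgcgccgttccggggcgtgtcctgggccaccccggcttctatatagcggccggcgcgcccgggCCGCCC
The IGFBP6 stretch, at 61.2% G and C, held 1 match to GTAAACA, 1 to GGAATG and 1 to GGGCGG, motifs found in 2.98%, 11.9% and 42.6% of 35116 promoter stretches of this length. The IGF2R stretch, at 79.2% G and C, held 3 matches to CACGTG, found in 6.34% of all stretches, and 6 to GGGCGG, of which 2 overlap each other and 1 is on the minus strand and so reads CCGCCC. The IGFBP3 stretch, at 76% G and C, held 2 matches to GGGCGG, both on the opposite strand. The median stretch had 58% G and C. GGGCGG matches were also present before IGF1R (2), IGFBP4 (1), IRS1 (4) and IRS2 (5), and 8 of the 9 members, all but IGFBP7, were matched to the table. These matches describe letters only.

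In the lung lines, no member passed the threshold, and IGFBP4 and IGF2R came nearest. With the probe set that stands for each gene, strong lung lines had more IGFBP4 and less IGF2R, without overlap, but neither difference passed the correction. At an adjusted p under 0.05, 0 of the 9 members were called by limma, while 8.77% of all genes passed (3.33% higher, 5.45% lower); at an unadjusted p under 0.05 there were 2 members and 23% of all genes. Groups did not overlap for 2 of the 9 members and for 19.8% of all genes. The members' median log2 difference was -0.22, against -0.01 over all genes, of which 318 were higher and 520 lower, or 523 and 576 with trimmed-mean scaling.

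IGFBP4 gave 9583, 10288, 8978 and 7620 in the strong lung lines 4142, 4173, 4175 and 4180, against 7073, 6242 and 5366 in the weak lung lines SCP21, SCP6 and SCP26. The lowest strong line was above the highest weak line by a small margin. The means were 9117 ± 1133 in strong lung lines (SD, n = 4) and 6227 ± 854 in weak lung lines (SD, n = 3), with a log2 difference of 0.55 (SE 0.21, 95% interval 0.11 to 0.99, limma adjusted p = 0.124). When arrays were scaled to a common trimmed mean, the difference was 0.61 and passed (limma adjusted p = 0.0465).

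IGF2R gave 695, 675, 747 and 795 in strong lung lines, against 850.3, 1312 and 892 in weak lung lines. All weak lines were above all strong lines with this probe set, as in the bone comparison, and SCP6 was the highest. With the other IGF2R probe set the lung groups overlapped, at 234, 261, 303 and 274 in strong lines and 299, 842 and 250 in weak lines. Its log2 difference was -0.56 (limma adjusted p = 0.338). The log2 difference was -0.45 (SE 0.19, 95% interval -0.86 to -0.04, limma adjusted p = 0.167).

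IGFBP6, IGFBP7 and IGFBP3, which did not overlap in the bone lines, overlapped in the lung lines. IGFBP6 gave 619, 889, 992 and 799 in strong lung lines and 480.2, 975 and 1446 in weak lung lines, and the strong values fell inside the weak range (log2 difference -0.11, limma adjusted p = 0.874). IGFBP7 gave 4270, 5585, 6120 and 3223 in strong lung lines and 3515, 7525 and 6041 in weak lung lines, again with overlap (-0.22, limma adjusted p = 0.736). IGFBP3 ranged from 599 to 1150 in strong lung lines and from 977 to 1153 in weak lung lines (-0.30, limma adjusted p = 0.445).

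Signals of the receptor IGF1R ranged from 157 to 222 in strong lung lines and from 89 to 291 in weak lung lines (0.07, limma adjusted p = 0.936). The 3 weak lung lines also spread widely for IRS2, at 1956, 2637 and 895, while strong lung lines gave 842 to 1500 (-0.46, limma adjusted p = 0.442). IRS1 ranged from 770.0 to 1192 in strong lung lines and from 759 to 1123 in weak lung lines (0.03, limma adjusted p = 0.963). IGFBP5 was above the 40th percentile on 1 of 4 strong arrays and 2 of 3 weak arrays (-0.52, limma adjusted p = 0.433).

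Of the marker genes, PECAM1 (log2 difference 1.13, limma adjusted p = 0.0128) and COL1A1 (549.7 to 708 in strong and 233 to 402 in weak lung lines, limma adjusted p = 0.0142) were higher and GATA3 (-0.90, 0.0470) and ERBB2 (-0.77, 0.0391) lower in strong lung lines. The GATA3 call was lost under 12 of 17 alternatives (limma adjusted p up to 0.119), the ERBB2 call under 8 (up to 0.147), the PECAM1 call under 2 (up to 0.0636) and the COL1A1 call under none. The summed signal of the endothelial and stromal list was 1176 to 1484 in strong and 811 to 911 in weak lung lines, that of the leukocyte list was 396 to 616 in strong and 185 to 657 in weak lung lines, and their part in the IGF values was not tested.

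**Figure D2:**
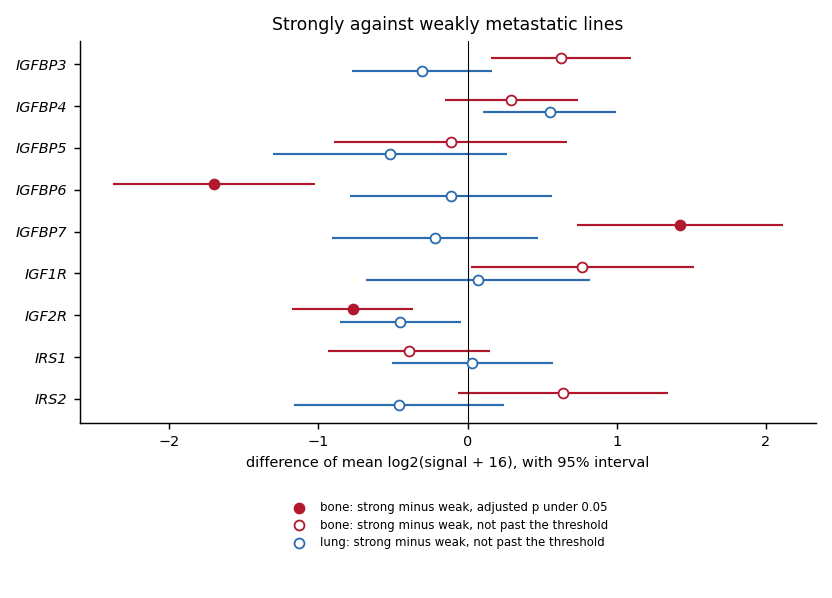
Log2 difference (signal + 16) of strong minus weak lines for the 9 IGF genes in the bone lines and in the lung lines, with 95% intervals, filled where the limma adjusted p was under 0.05. IGFBP7 at 1.42, IGF2R at -0.77 and IGFBP6 at -1.70 are filled for bone, and no gene is filled for lung.

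The bone difference was then tested against the lung difference in the same fit. IGFBP6 and IGFBP7 were the 2 of 9 members that passed, against 11.6% of all genes (6.89% higher, 4.75% lower), and 4 members and 26.2% of all genes had an unadjusted p under 0.05. Over all genes the contrast was higher for 658 and lower for 454, or 669 and 701 with trimmed-mean scaling. For IGFBP6 the bone difference of -1.70 and the lung difference of -0.11 differed by -1.59 (SE 0.44, 95% interval -2.54 to -0.63, limma adjusted p = 0.0340). For IGFBP7 the bone difference of 1.42 and the lung difference of -0.22 differed by 1.64 (SE 0.45, 95% interval 0.67 to 2.62, limma adjusted p = 0.0318). The other kept IGFBP7 probe set, tested alone, gave differences of 1.13 in bone and -0.07 in lung lines. Its contrast ran the same way but did not pass (limma adjusted p = 0.0632). IGFBP3 had a positive difference in bone and a negative one in lung lines, but the contrast between them, 0.93 (SE 0.31), gave a limma adjusted p of 0.0686. The IRS2 contrast was 1.10 (SE 0.46, limma adjusted p = 0.147), and became 1.54 with a limma adjusted p of 0.0171 without line SCP26. The other kept IRS2 probe set, tested alone, gave a contrast of 0.09 (SE 0.32, limma adjusted p = 0.899). For IGF2R, whose mean was lower in strong lines of both organs, the contrast was -0.32 (limma adjusted p = 0.491), which does not show that the organs are alike.

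The 2 contrasts depended on single lines. Over 23 alternatives the limma adjusted p of the IGFBP6 contrast ran from 0.00808 to 0.0861 and was above 0.05 without line 1833, 2268, 2269, 4173, 4175, 4180, 2293, 2296 or SCP21; that of IGFBP7 ran from 0.0137 to 0.0713 and was above 0.05 without 4142, 4180, 2293, 2295, SCP6 or SCP26 and with all 19 arrays in 1 fit.

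Probe sets of the same gene gave a check on the signals themselves. Over the 14 metastatic lines, after the mean of each organ was removed, the kept pairs of probe sets correlated at r = 0.88 for IGFBP7, 0.80 for IGFBP3, 0.75 for IGF2R and 0.70 for IRS2. The 3 IGF1R probe sets did not follow each other (r = 0.04, -0.14 and -0.43). Of these, 2 were dimmer, above the 40th percentile on 13 and 8 of 19 arrays. Nor did the kept pair of the dim IGFBP5 (r = -0.46). These values describe 14 lines that share their arrays between probe sets. IGFBP4, IGFBP6 and IRS1 had 1 probe set each and so no such check.

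**Figure D3:**
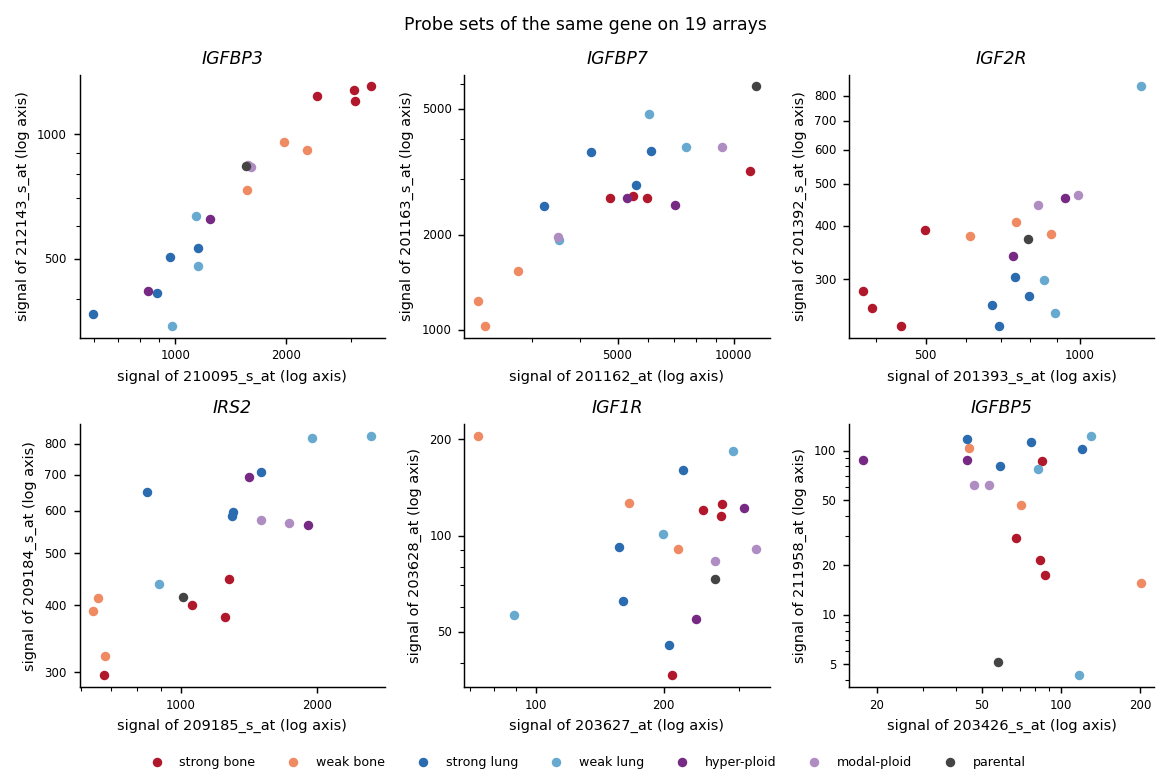
Signal (log axes, arbitrary units) of 2 kept probe sets of the same gene, with the one that stands for the gene on the horizontal axis and 1 point per array for all 19 arrays, coloured by group. The points of IGFBP3 and IGFBP7 run along a diagonal, while those of IGF1R and of the dim IGFBP5 scatter.

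No IGF gene passed the test between hyper-ploid and modal-ploid sublines. The carriers IGFBP3 and IGFBP6 had lower signals in both hyper-ploid sublines than in both modal-ploid sublines, as did the dim IGFBP5, and the fitted log2 differences of IGFBP7, the receptors and the IRS proteins lay between -0.12 and 0.12. At an adjusted p under 0.05, limma called 0 of 9 members and 0.0105% of all genes, which is 1 gene. An unadjusted p under 0.05 was reached by 2 members, IGFBP6 and IGFBP3, and by 5.27% of all genes. The groups did not overlap for 3 of 9 members and for 22.3% of all genes, and the members' median log2 difference was -0.12 against -0.01 over all genes. The comparison had 2 samples a group and 1 residual degree of freedom with line of origin as a block, so the spread was taken largely from all genes.

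IGFBP6 gave 421 in hyper-ploid 1833 and 324 in hyper-ploid 4175, against 566 in modal-ploid 1833 and 694 in modal-ploid 4175. Both hyper-ploid sublines were below their modal-ploid partner. The log2 difference was -0.74 (SE 0.28), with an unadjusted limma p of 0.0236 and an adjusted p of 0.777. IGFBP3 gave 1244 and 842 in the hyper-ploid sublines of 1833 and 4175, against 1610 and 1572 in their modal-ploid partners. It was lower in both pairs, by 0.37 and 0.89 on the log2 scale, and its other probe set was lower by 0.41 and 0.99. The fitted IGFBP3 difference was -0.63 (SE 0.27), with an unadjusted limma p of 0.0431 and an adjusted p of 0.930.

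IGFBP4 behaved differently in the 2 pairs. In the 4175 pair its signal was 5158 when hyper-ploid and 15459 when modal-ploid, a log2 difference of -1.58. In the 1833 pair it was 15408 when hyper-ploid and 14732 when modal-ploid. The fitted difference was -0.76 (SE 0.36, limma adjusted p = 0.969), and it was 0.06 without the 4175 pair. IGFBP7 gave 5276 in hyper-ploid and 3499 in modal-ploid 1833, and 7058 in hyper-ploid and 9323 in modal-ploid 4175, so the pairs went opposite ways. IRS1 and IRS2 also had opposite signs in the pairs, at 0.41 and 0.35 in the 1833 pair and -0.18 and -0.29 in the 4175 pair.

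IGF1R gave 237 and 308 in hyper-ploid 1833 and 4175, against 264 and 329 in the modal-ploid partners. IGF2R gave 739.5 and 933 in hyper-ploid 1833 and 4175, against 826 and 989.8 in the modal-ploid partners. With these probe sets both receptors were slightly lower in the hyper-ploid subline of each pair, by 0.08 to 0.16 on the log2 scale. A dimmer kept IGF1R probe set ran the opposite way, at 68.9 and 104 in hyper-ploid and 38.3 and 44.2 in modal-ploid 1833 and 4175 (log2 differences 0.64 and 0.99, fitted 0.82, limma adjusted p = 0.693). The remaining IGF1R probe set gave -0.49 and 0.37, and the other IGF2R probe set -0.38 and -0.02. IGFBP5 was below the 40th percentile on all 4 ploidy arrays, at 43.8 and 17.8 in hyper-ploid and 53.4 and 46.9 in modal-ploid sublines, while its other kept probe set ran the opposite way, at 87 and 88.1 in hyper-ploid and 61.8 and 61.3 in modal-ploid sublines.

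Within single pairs, which have no replicate, 0 of 9 members differed by more than 2-fold on the log2(signal + 16) scale in the 1833 pair, against 3.31% of all genes. In the 4175 pair 2 of 9 did on that scale, IGFBP4 and IGFBP6, against 5.14% of all genes. The signals of the dim IGFBP5, whose log2 difference was -0.90 there, were 2.64 times higher in modal-ploid 4175 without the added 16. With the probe set that stands for each gene, all 9 members were lower in hyper-ploid 4175, with a median log2 difference of -0.40 against -0.06 over all genes. Other kept probe sets of IGF1R (0.37 and 0.99), IGFBP5 (0.43) and IRS2 (0.28) were higher there. Those of IGFBP3 (-0.99), IGFBP7 (-0.61) and IGF2R (-0.02) were lower. In the 1833 pair 5 of 9 members were lower, with a median of -0.14 against 0.06 over all genes. The share of all genes that were lower was not counted for either pair.

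**Figure D4:**
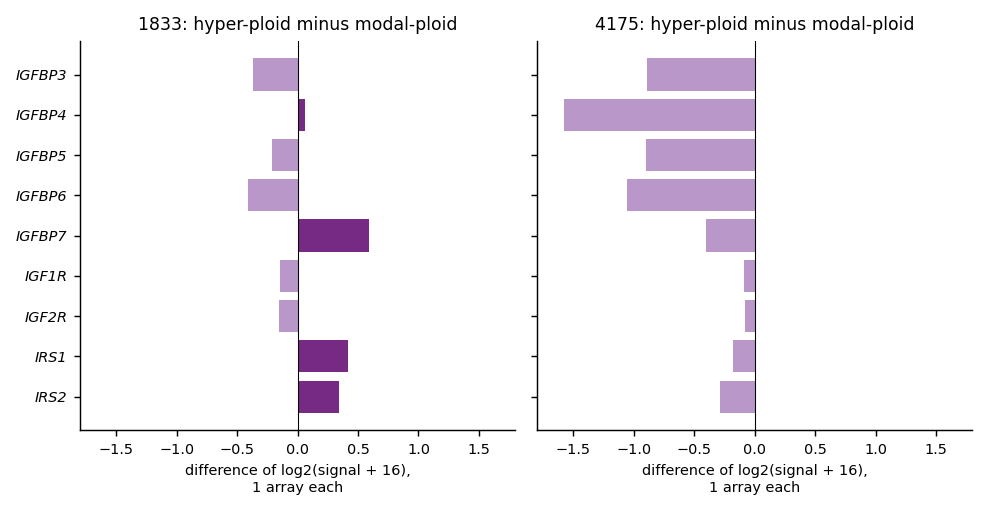
Log2 difference (signal + 16) of the hyper-ploid minus the modal-ploid subline for the 9 IGF genes in the 1833 pair and in the 4175 pair, 1 array each, dark above 0 and light below 0. IGFBP4 stands at -1.58 in the 4175 pair and at 0.06 in the 1833 pair.

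Lists of other genes of the pathway were counted in the same fits, and no gene of any list passed in the ploidy comparison. Of 10 other ligands, receptors and binding proteins on the array, 7 were tested. IGFBP1, a liver carrier regulated by insulin whose gene neighbours IGFBP3, was the 1 that was higher in strong bone lines, and INSR, the insulin receptor, the 1 that was lower in strong lung lines. Over all genes, 6.67% were higher in strong bone lines and 5.45% lower in strong lung lines. IGFBP1 gave 1446, 2564, 1525 and 2551 in the strong bone lines, against 481, 713 and 771 in the weak bone lines, without overlap. Its log2 difference was 1.58 (SE 0.32, limma adjusted p = 0.00768) in bone and 0.67 (limma adjusted p = 0.228) in lung lines. INSR gave 143, 151, 109 and 63.7 in the strong lung lines, against 331, 569.9 and 226 in the weak lung lines, also without overlap (-1.52, SE 0.34, limma adjusted p = 0.0128). The INSR call was lost without line SCP6 (limma adjusted p = 0.0567), and the IGFBP1 call with all 19 arrays in 1 fit (limma adjusted p = 0.0671). The list's medians were -0.13 in bone and 0.50 in lung lines, and its 1 gene past the threshold in the contrast between organs, IGFBP2, was above the 40th percentile on 2 of 19 arrays. In that contrast 11.6% of all genes passed. The ligand IGF1 was above the 40th percentile on 2 of 19 arrays with 1 of its 4 probe sets, and INS on none. No level of the ligand IGF2 is given here.

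Of 11 tested proteases that cut binding proteins, and their regulators, none passed in bone lines and 3 were lower in strong lung lines: HTRA1, CTSD and ADAM28. Over all genes, 11.4% passed in bone lines and 5.45% were lower in strong lung lines. HTRA1, a secreted serine protease, averaged 546 in strong lung lines and 1796 in weak lung lines (log2 difference -1.57, SE 0.33, limma adjusted p = 0.00988). CTSD, the lysosomal protease cathepsin D and a cargo of IGF2R, averaged 1420 in strong lung lines and 3073 in weak lung lines (-1.06, SE 0.26, limma adjusted p = 0.0219). ADAM28 was dim in every lung line, so no fold is given. The CTSD call was lost under 4 of 17 alternatives (limma adjusted p up to 0.0907), and the HTRA1 call under 1. The list's medians were -0.46 in bone and 0.11 in lung lines.

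Of 30 signalling genes tested, 3 were higher and 1 lower in strong bone lines, where 6.67% of all genes were higher and 4.69% lower. In strong lung lines 2 were higher and 1 lower, where 3.33% of all genes were higher and 5.45% lower. These counts were close to the shares over all genes, and the list's medians were 0.02 and -0.07. SOCS2, an inhibitor of cytokine and growth hormone signalling, gave 729, 741, 638 and 639.6 in the strong bone lines, against 112, 77.8 and 107 in the weak bone lines. That log2 difference of 2.62 (SE 0.20, limma adjusted p = 9.75e-06) exceeded every member's, and SOCS2 was also higher in strong lung lines (0.78, limma adjusted p = 0.0279), a call lost under 7 of 17 alternatives. SOS1, the exchange factor that activates RAS, averaged 407 in strong bone lines and 203 in weak bone lines (0.95, limma adjusted p = 0.00828). PHLPP1, a phosphatase of AKT, averaged 195 in strong and 82.2 in weak bone lines (1.12, limma adjusted p = 0.0127), and only 1 of the 3 weak lines was above the 40th percentile. GRB10, an adaptor that restrains insulin and IGF receptors, averaged 678 in strong and 1171 in weak bone lines (-0.74, limma adjusted p = 0.0445), a call lost under 11 of 17 alternatives. In lung lines PIK3R3, a regulatory subunit of PI3-kinase, averaged 249 in strong and 89.4 in weak lines (1.45, limma adjusted p = 0.00483), and the call was lost with the mean of its probe sets (limma adjusted p = 0.201). RHEB, which activates mTORC1, had a log2 difference of -0.52 in lung lines (limma adjusted p = 0.0324), a call lost under 7 of 17 alternatives. The bone difference exceeded the lung difference for 5 of the 30 genes and was below it for none, against 6.89% and 4.75% of all genes.

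Targets of FOXO, the transcription factors that AKT restrains, gave 4 of 15 higher and none lower in strong bone lines, and none higher and 2 lower in strong lung lines, with medians of -0.0021 and -0.24. Over all genes, 6.67% were higher and 4.69% lower in bone lines, and 3.33% higher and 5.45% lower in lung lines. GADD45A, a stress response gene, averaged 1414 in strong bone lines and 346 in weak bone lines (1.91, SE 0.31, limma adjusted p = 0.00185). CITED2, a transcriptional co-regulator, averaged 1316 in strong and 485 in weak bone lines (1.39, limma adjusted p = 0.0102). BCL6, a transcriptional repressor, and PINK1, a mitochondrial kinase, were higher in strong bone lines by 1.11 and 0.85, and each of these calls was lost under 4 of 17 alternatives. In lung lines TXNIP, an inhibitor of thioredoxin, averaged 1294 in strong and 3216 in weak lines (-1.25, limma adjusted p = 0.00713). TNFSF10, the death ligand TRAIL, averaged 222 in strong and 1168 in weak lung lines (-2.15, limma adjusted p = 0.0361), a call lost under 6 of 17 alternatives. The bone difference exceeded the lung difference for 6 of these 15 targets and was below it for none, while it exceeded it for 6.89% and was below it for 4.75% of all genes.

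Of 2 tested IGF2 mRNA-binding proteins, IGF2BP3 averaged 992 in strong and 556 in weak lung lines (0.82, SE 0.18, limma adjusted p = 0.0118). In bone lines its difference was -0.56 (limma adjusted p = 0.0566), and the contrast between organs, -1.38, passed. Over all genes, 3.33% were higher in strong lung lines and 4.75% were lower in the contrast. Of 3 tested genes of the mannose 6-phosphate pathway, which tags cargo for IGF2R, none passed in any comparison.

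**Figure D5:**
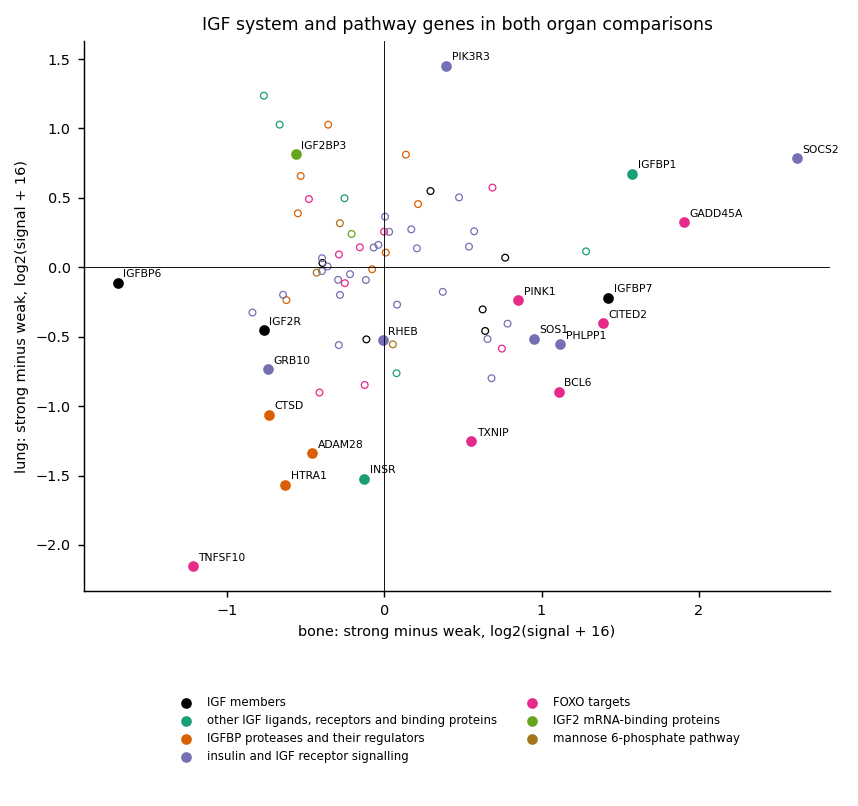
Log2 difference (signal + 16) of strong minus weak bone lines (horizontal) against strong minus weak lung lines (vertical) for IGF genes and the pathway lists, filled and labelled where the limma adjusted p was under 0.05 in either. SOCS2 lies farthest right at 2.62 in bone, and IGFBP6 farthest left among the filled genes at -1.70.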

How the data were processed

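RNA of 19 samples was measured on Affymetrix arrays of 22283 probe sets, 1 array each. The values deposited by the authors are linear ratios, 0.00115 to 361, of each array to a divisor per probe set; the upstream software is not given in the sources used here. Divisors differed between 2 array sets of 10 and 9 arrays, and ratios of 22257 probe sets (99.9%) were whole multiples of 0.1 signal units (tolerance 0.01 steps) after a divisor per set was found, which recovered the signals. That step was inferred from the values and was tested on simulated data; the other 26 probe sets were left out.

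Each array was multiplied to reach a median signal of 142.9 and log2(signal + 16) was taken, which understates changes of dim genes. Probe sets above the array's 40th percentile on at least 2 arrays were kept (16314), and each gene was represented by its brightest kept probe set on average (9550 genes). limma 3.58.1 in R 4.3.3 (lmFit, eBayes) was fitted across all genes, on 14 metastatic lines in 4 groups (10 residual degrees of freedom) and on 4 ploidy sublines with line of origin as a block (1 residual degree of freedom). The block is the line of origin that the labels give. Benjamini-Hochberg adjustment ran over all 9550 genes, with a threshold of 0.05.

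Gene names came from the platform annotation (19071 probe sets with 1 gene, 1043 with several, 2169 with none). The members and lists were chosen with earlier results of these data known. All 9 members are named; of the other lists, genes past the threshold in the bone or lung comparison, at most 8 per list and comparison, and per member the 3 genes with the most similar pattern. Alternatives changed the scaling, offset, filter, probe set rule, samples fitted, block and single lines. The number of arrays limits the precision.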

Additional observations from a re-analysis of the deposited data

Results flagged for a closer look

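The difference between strong and weak lines was tested between organs, and 2 of the 9 IGF genes passed, as did 11.6% of all genes. IGFBP6 was lower in 4 of 4 strong bone lines than in every weak bone line, while no difference was shown in lung lines (-0.11). Its contrast was -1.59 on the log2 scale (limma adjusted p = 0.0340). IGFBP7 was higher in strong bone lines but not in strong lung lines, a contrast of 1.64 (limma adjusted p = 0.0318, higher in 4 of 4 strong bone lines than in every weak bone line). With the other kept IGFBP7 probe set, tested alone, the contrast ran the same way but did not pass (limma adjusted p = 0.0632). Over 23 alternatives the IGFBP6 contrast passed in 14 and the IGFBP7 contrast in 16. Organ and array set cannot be told apart in either contrast. Of 18 groups of 4 lines examined for a single line far from the others, 0 were flagged. With only 4 lines a group, that does not show that no line stood apart.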

How the results depend on the processing

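IGFBP6 passed in the bone lines in all 17 alternatives (limma adjusted p 0.00100 to 0.0238). The number of IGF genes called was 3 in bone lines (2 to 3 with single lines left out), 0 in lung lines (0 with single lines left out) and 0 in the ploidy comparison. In bone lines it was also 2 with the mean of a gene's probe sets and 4 under the stricter filter, where 8 members were tested. For the contrast of bone with lung it was 2, but 1 with all 19 arrays in 1 fit and 0 to 2 with single lines left out. That contrast called 3 with an offset of 64 and 3 under the stricter filter. Scaling to a common trimmed mean, chosen after seeing the data, called 1 IGF gene in lung lines, IGFBP4. Without the replicate block the ploidy comparison called 0 IGF genes and 0 genes in all, against 1 with it, and the block changed no other call. IGFBP3 passed in bone lines under the stricter filter (limma adjusted p = 0.0477), and the contrast of bone with lung for IGFBP3 passed under 4 alternatives. With the mean of a gene's probe sets, signs turned for IGFBP5 in the contrast (-0.41) and in lung lines (0.18), and for IGF1R (0.21) and IGFBP7 (-0.0023) in the ploidy comparison. With single lines or pairs left out, signs turned for results that had not passed: in the ploidy comparison IGFBP4 ran from -1.58 to 0.065, IGFBP7 from -0.40 to 0.59, IRS1 from -0.18 to 0.41 and IRS2 from -0.29 to 0.35; in bone lines IGFBP5 ran from -0.50 to 0.41; in lung lines IGF1R ran from -0.36 to 0.41, IGFBP6 from -0.54 to 0.24, IGFBP7 from -0.53 to 0.015 and IRS1 from -0.14 to 0.15. The cause was not tested. Over all genes, 637 higher and 448 lower in bone lines became 712 and 794 with the trimmed mean and 723 and 728 with quantile scaling; 318 and 520 in lung lines became 523 and 576, and 571 and 599; 658 and 454 in the contrast became 669 and 701, and 701 and 740. The trimmed mean moved the median of all genes in the contrast to -0.10, against 0.03, while the IGFBP6 and IGFBP7 contrasts kept their calls. The bone count of 1085 fell to 537 without line 2295, 559 without 2293 and 610 without 2296; the lung count of 838 to 441 in a fit of the 7 lung lines alone, 501 without 4175 and 533 without 4173; the ploidy count was 11 under the stricter filter. IGFBP5 and 2 IGF1R probe sets lay near the dim mark, where small differences were not measurable.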

Other observations

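For each IGF gene, the genes with the most similar pattern were found by Pearson correlation of the log2 level over the 14 metastatic lines, after the mean of the bone lines and of the lung lines was removed. These values describe 14 lines that share arrays and the difference between strong and weak lines. IGFBP7 was most like CRYZ (r = 0.98), HSP90B1 (0.94) and ATP10D (0.93). IGF2R was most like RHBDF2 (0.98), DSE (0.93) and HLA-DRB1 (0.93). IGFBP6 was most like SERPINA1 (0.94), CROT (0.92) and B4GALT5 (0.92). IRS2 was most like THOC1 (0.97), NRDC (0.95) and MARCHF7 (0.95). IGFBP3 was most like SLC41A3 (0.90), SSH1 (0.87) and TAX1BP1 (0.87), and IGF1R like GPR137B (0.89), PSME4 (0.86) and KDM4D (0.84). IRS1 was most like NLRX1 (0.88), PTS (0.84) and PPFIA1 (0.82), and IGFBP4 like ANGPTL4 (0.86), EPHA2 (0.86) and SNTB1 (0.86). Among the members themselves, the highest correlations were IGFBP3 with IGFBP7 (0.70), IGFBP6 with IGF2R (0.67) and IGF1R with IRS2 (0.59), and the lowest were IGFBP6 with IGF1R (-0.53) and IGFBP6 with IGFBP7 (-0.52).

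The ploidy sublines were also set beside the strong line of the same origin, with 1 array each. The ploidy arrays had a lower overall signal before scaling, and the differences below are of scaled signals. In the 1833 family, IGF2R was 0.89 higher in the hyper-ploid and 1.04 higher in the modal-ploid subline than in line 1833 on the log2 scale. IGFBP4 was 0.76 higher in the hyper-ploid and 0.70 higher in the modal-ploid subline. IGFBP3 was 1.29 lower in the hyper-ploid and 0.92 lower in the modal-ploid subline than in line 1833. The other IGFBP3 probe set gave -1.01 and -0.61. In the 4175 family, IGFBP6 was 1.57 lower in the hyper-ploid subline than in line 4175. No test was made of these values.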
